A study of Homo sapiens with 15 samples.

Results

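The cytosolic ribosomal protein genes were followed across 15 Affymetrix U133 Plus 2 arrays of 2 cell lines, which the authors describe as granulosa cell tumour (GCT) lines. The aim was to test how stable the expression of these genes was and how the 2 lines can be set on a common scale. A gene was a member if at least 1 probe set carried its symbol alone in the platform annotation, and if that symbol was RPL or RPS with a number and at most an A, X or L behind it, or RPLP0, RPLP1, RPLP2 or RPSA. The rule gave 56 genes out of 19775 with a probe set of their own, 35 of the large and 21 of the small ribosomal subunit, on 117 of 54613 probe sets. Each gene was read at its probe set of highest mean signal over the 15 arrays, and 34 members had more than 1 probe set. A further 64 probe sets list a ribosomal protein gene beside other symbols and were left unnamed. RPLP0, RPSA, RPL5, RPL10, RPL13A, RPL23 and RPS27A had no probe set with a single symbol and are not analysed here.

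KGN, a line of adult-type GCT in which 1 allele of FOXL2 carries the tumour mutation, received a Stealth RNAi product against FOXL2 or a control RNAi of matched GC content, at passage 8. COV434, which the authors take as a line of juvenile-type GCT, has unmutated and very low FOXL2. It received 1 µg of plasmid at passage 9, which held wildtype FOXL2, mutant FOXL2 or no insert (empty vector). All 5 groups had 3 arrays, were seeded at 300000 cells a well, were transfected with Lipofectamine 2000, lost the transfection complexes after 7 h and were harvested at 24 h. The 3 arrays of a group came from separate transfections made on the same occasion, so p-values measure only the spread between such transfections. The labels give no replicate numbers, so the arrays of a group are numbered here in the order of the deposited samples. A single siRNA product and transient plasmids stood for the loss and gain of FOXL2, and line, passage and kind of control changed together between KGN and COV434.

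FOXL2 itself was 8.07 ± 0.15 on the log2 scale (SD, n = 3) in control KGN cells and 6.30 ± 0.05 after knockdown (adjusted p = 0.000556, limma). In COV434 its means lay between 2.57 and 2.87 in the 3 groups, and its probe set, in the 3′ untranslated region, does not read the plasmids. Of 13 granulosa markers measured, 7 were above background in KGN and 5 in COV434, and AMHR2, CYP19A1, FSHR, INHA and NR5A1 were below it in both lines. Markers of leukocytes (0 of 5 in KGN, 1 of 5 in COV434), endothelium (2 of 5 in each) and epithelium (2 of 6 and 1 of 6) were also counted above background. Empty vector replicate 1 stood apart in RNA quality: its 3′ probe set of ACTB exceeded the 5′ probe set by 7.81 on the log2 scale, against 1.51 to 2.58 on the other 14 arrays, and for GAPDH the excess was 4.67 against 0.10 to 1.08. Results that rest on this array are therefore also given without it. In such bulk samples fewer cells of a type and less RNA per cell cannot be told apart.

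Every cytosolic ribosome has a large subunit, which joins amino acids, and a small subunit, which reads the messenger RNA. Their proteins are made in near equal amounts, and most of the messengers begin with a C and an unbroken run of pyrimidines, the 5′ terminal oligopyrimidine (TOP) tract, through which growth signals set their translation together. Ribosomal protein genes are often used as reference genes because most cells transcribe them strongly. Some members have paralogs of narrower expression: RPL3L in muscle, RPL10L and RPL39L in the testis, and RPS27L as a target of p53.

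The tract is the feature that most members share and that the rule did not use, so the start sites of members with and without it are shown. The sequences are from RefSeq (GRCh38.p14) on the strand of the gene, and each holds 10 bases before the annotated start and 20 from it on. Capitals mark the tract, here a C at the start followed by at least 4 bases that are each C or T.
RPL41 (chr12:56116623-56116652, plus): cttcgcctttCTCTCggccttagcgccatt
RPLP1 (chr15:69452808-69452837, plus): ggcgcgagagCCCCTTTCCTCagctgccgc
RPL27A (chr11:8682782-8682811, plus): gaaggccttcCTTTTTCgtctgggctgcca
RPL39 (chrX:119791611-119791640, minus): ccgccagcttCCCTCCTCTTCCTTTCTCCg
RPS6 (chr9:19380217-19380246, minus): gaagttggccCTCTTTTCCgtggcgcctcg
RPS9 (chr19:54200848-54200877, plus): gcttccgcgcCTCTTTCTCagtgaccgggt
RPS27 (chr1:153990752-153990781, plus): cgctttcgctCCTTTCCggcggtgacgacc
RPS27L (chr15:63157458-63157487, minus): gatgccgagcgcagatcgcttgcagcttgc
RPL10L (chr14:46651762-46651791, minus): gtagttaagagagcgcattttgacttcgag

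Of the 48 members with an entry in the RefSeq table, 33 (68.8%) held the tract at the annotated start, against 1429 of 35116 promoters in the table (4.07%). Its length in these members was 8 bases at the median and 19 at most, in RPL39. When the tract could begin up to 10 bases to either side, it was found in 42 members (87.5%) and in 33.5% of all promoters. RPS27, a small subunit protein, holds the tract, and its paralog RPS27L has none in the bases printed above. RPL10L, the copy of RPL10, also has none there. Lack of the tract at the start is not particular to paralogs, since RPL3, RPL11 and RPS4X lack it as well. RPS4X had none within 10 bases either. The members without an entry were RPL7, RPL8, RPL23A, RPL30, RPL37, RPL3L, RPL39L and RPS15A. The search read the strand of the gene only, and a match describes letters at an annotated start, not a start measured in these cells.

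Signals of the members were among the highest on every array, and the group medians lay close together. The median member stood at 13.55 to 13.68 on the log2 scale on the KGN arrays and at 13.57 to 13.73 on the COV434 arrays, which is the 99.71st to 99.83rd percentile of all probe sets. In each of the 5 groups 50 of the 56 members had a mean over 12, where the highest signal of any probe set was 14.52 to 14.91. Group means of the member median were 13.60 ± 0.07 (SD, n = 3 throughout) in control KGN cells and 13.60 ± 0.01 after knockdown. They were 13.66 ± 0.08 with empty vector, 13.61 ± 0.01 with wildtype and 13.62 ± 0.04 with mutant FOXL2 in COV434. The signal of a probe set depends on its probes as well as on the RNA, so these values place probe sets on the array's scale and do not rank genes by abundance. Near the top of the scale an array signal can also flatten, and whether it did here was not tested.

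**Figure D1:**
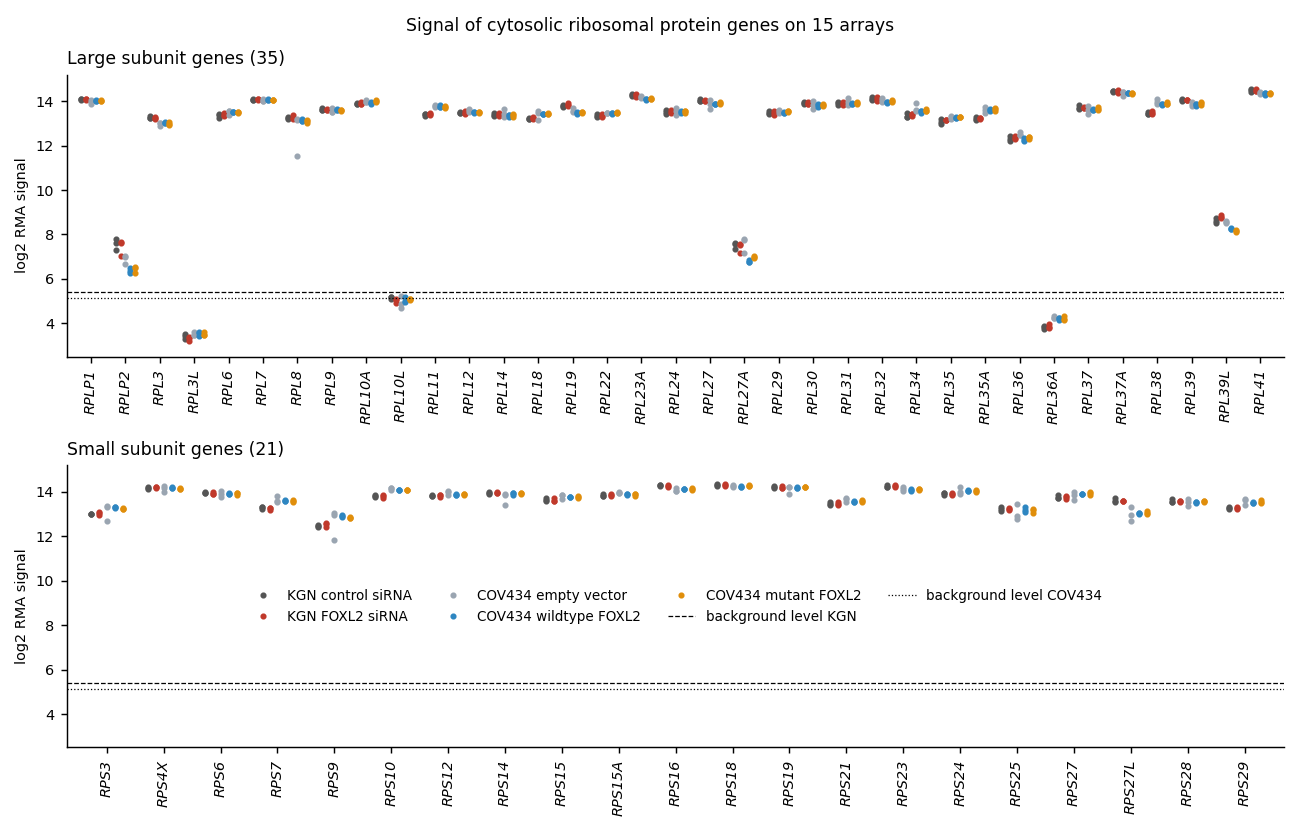
Log2 RMA signal (y axis) of the 35 large and 21 small subunit genes (x axis) on each of 15 arrays, with 1 point per array coloured by group and lines at the background level of KGN (dashed) and COV434 (dotted). In every group 50 of 56 members have a mean over 12, and the 6 lower ones are RPLP2, RPL3L, RPL10L, RPL27A, RPL36A and RPL39L.

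Among the large subunit genes, RPL41, whose product is the smallest ribosomal protein, read 14.43, 14.54 and 14.52 in control KGN cells and 14.47, 14.47 and 14.53 after knockdown. In COV434 it read 14.42, 14.34 and 14.39 with empty vector, 14.29, 14.36 and 14.36 with wildtype and 14.36, 14.33 and 14.38 with mutant FOXL2. The siRNA groups overlapped, as did the 3 plasmid groups. RPL37A, a protein with a zinc finger, averaged 14.39 over the 15 arrays. RPLP1, a protein of the stalk that recruits translation factors, had group means between 13.96 and 14.10. Its stalk partner RPLP2 was read at a dim probe set, 6.94 on average, as was RPL27A at 7.25.

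Among the small subunit genes, RPS18 averaged 14.28 and RPS4X, one of the few members on the X chromosome, 14.17. RPS6, the ribosomal protein phosphorylated by S6 kinases, had group means between 13.90 and 13.97. RPS19 and RPS14, known from inherited and acquired anaemias with failing red cell production, averaged 14.19 and 13.91. RPS27 averaged 13.84, and its p53-linked paralog RPS27L averaged 13.27 with a difference between the lines described further on.

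RPL3L, RPL10L and RPL36A were below the background level in both lines, which was 5.39 in KGN and 5.15 in COV434, the 95th percentile of 171 probe sets for olfactory receptors and keratin-associated proteins. RPL3L averaged 3.45, RPL10L 5.05 and RPL36A 4.07, and for these 3 members no fold is given. The third paralog, RPL39L, was above background on every array, with an average of 8.48. Its parent gene RPL39, a short protein near the exit tunnel, averaged 13.94.

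Replicates of the same group differed little for most members. The SD within groups, pooled over the 5 groups, was 0.0705 on the log2 scale at the median of the members, 0.158 for all probe sets and 0.0956 for the 362 other probe sets with a mean over 12. Without empty vector replicate 1 these medians were 0.056, 0.139 and 0.0663. The members of smallest pooled SD were RPS18 (0.0317), RPL7 (0.0319), RPS15A (0.0371), RPL22 (0.0374) and RPS10 (0.0403). The largest were RPL8 (0.426), RPS9 (0.307), RPLP2 (0.226), RPL27A (0.2) and RPS25 (0.18).

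**Figure D2:**
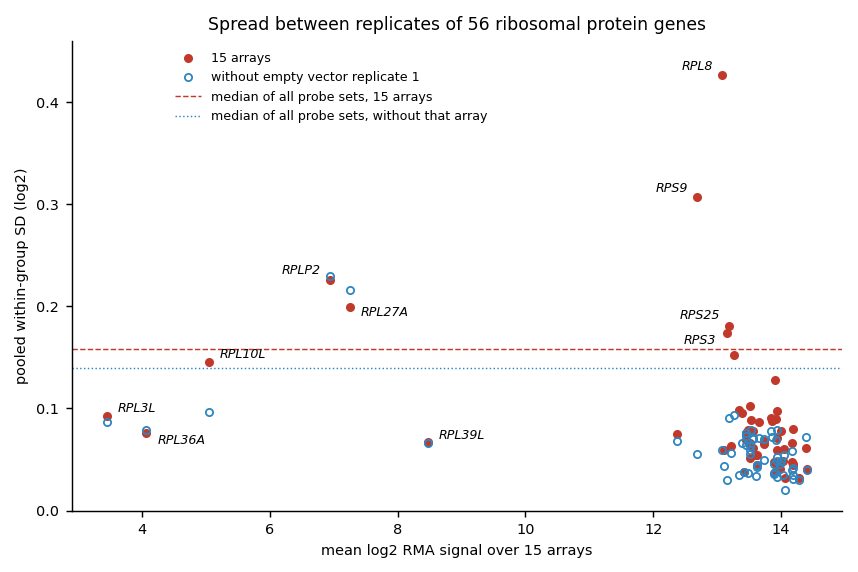
Pooled within-group SD of each of 56 members (y axis, log2) against its mean log2 RMA signal (x axis), with all 15 arrays (filled) and without empty vector replicate 1 (open), and horizontal lines at the median of all probe sets. RPL8 and RPS9 stand at 0.426 and 0.307 with all arrays and come down to 0.0594 and 0.055 without that array, whereas RPLP2 and RPL27A are at 0.229 and 0.216 without it.

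For RPL8 and RPS9 the spread came from empty vector replicate 1. RPL8, a protein next to the catalytic centre, read 11.55 on that array, 13.15 and 13.22 on the other empty vector arrays, and at least 13.02 on each of the other 14 arrays. RPS9, which binds ribosomal RNA early in assembly, read 11.85, 13.07 and 12.98 with empty vector. This array minus the mean of the other 2 of its group was -1.63 for RPL8 and -1.17 for RPS9 on the log2 scale. The same difference was -0.66 for RPS3, -0.47 for RPS14 and -0.36 for RPL18, and it was 0.62 for RPS25 and 0.51 for RPS27L. In all, 42 of 56 members were higher on this array than on the other 2, with a median of 0.11 against 0.03 for all probe sets. Differences beyond 0.3 were seen for 10 members (17.9%) and for 40% of all probe sets. The high 3′ to 5′ ratios of ACTB and GAPDH belong to the same array, and their part in these values was not tested.

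The comparison of knockdown with control siRNA asked whether the loss of FOXL2 in KGN touched the ribosomal protein genes. With limma, 0 of 56 members passed an adjusted p of 0.05, where 0.273% of all probe sets did, and 0 passed an unadjusted p of 0.05, where 7.5% did. No member had siRNA groups free of overlap, against 13.8% of probe sets. Differences between knockdown and control were -0.0013 at the median and 0.01 for all probe sets, and 52 members lay within 0.1 of 0. The 95% confidence interval lay within 0.5 of 0 for 55 members, with a median width of 0.185 to either side, so a common change of 0.5 or more is outside the interval of each of those 55.

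The highest difference after knockdown was that of RPL39L. It read 8.53, 8.61 and 8.72 in control cells and 8.77, 8.72 and 8.88 after knockdown, a difference of 0.17 (SE 0.09, adjusted p = 0.729, limma). Knockdown arrays were the higher ones, but the highest control array, replicate 3, lay just over the lowest knockdown array, replicate 2, so the groups overlapped. RPL35 followed at 0.08, RPS9 and RPL19 at 0.06 and RPL34 at 0.05, and RPL36A was also among the 5 highest. At the other end were RPLP2 at -0.11, RPL27A at -0.09 and RPL3, a protein of the catalytic centre, at -0.04, together with RPL10L and RPL3L. RPL11, which holds MDM2 away from p53 when ribosome assembly is disturbed, differed by 0.03 and RPS27L by -0.03.

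**Figure D3:**
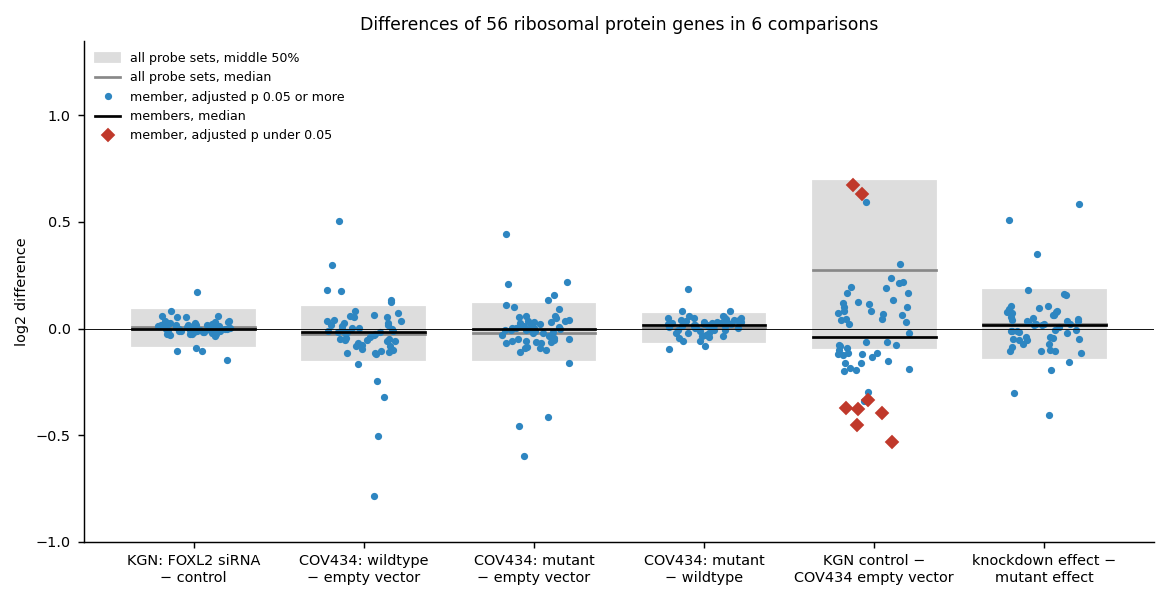
Log2 differences (y axis) of 56 members (points) in 6 comparisons (x axis), over the middle 50% of all probe sets (grey box) with the medians of all probe sets (grey line) and of the members (black line). Diamonds mark adjusted p under 0.05 in limma, and they appear in KGN control against COV434 empty vector only, where 8 members are called.

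In COV434 the plasmid groups were compared with empty vector, and 0 members passed the adjusted threshold in either comparison, as was true of all probe sets (0% in each). The wildtype and the mutant comparison share the empty vector arrays, so their values are given side by side and are not independent. Medians over the members were -0.02 with wildtype and -0.0033 with mutant FOXL2, against -0.03 and -0.02 for all probe sets. At an unadjusted p of 0.05, 4 members were lower with wildtype FOXL2 (background 11.1% in either direction, 7.46% lower) and 3 with mutant FOXL2 (13%, 8.2% lower), and none was higher. Groups did not overlap for 10 members with wildtype FOXL2, all lower, where 13.4% of probe sets were free of overlap and 9.26% were lower. With mutant FOXL2 it was so for 7 members (background 14.5%), of which 6 were lower (9.34%) and RPS14 was higher (5.13%).

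RPL27A, a large subunit protein, showed the largest difference. It read 7.82, 7.73 and 7.18 with empty vector, 6.74, 6.85 and 6.78 with wildtype and 7.01, 6.98 and 6.94 with mutant FOXL2. All 6 FOXL2 arrays were below all 3 empty vector arrays, of which replicate 3 was well below the other 2. The differences were -0.79 (SE 0.15, adjusted p = 0.235, limma) with wildtype and -0.60 (adjusted p = 0.201, limma) with mutant FOXL2. RPLP2 read 7.02, 6.96 and 6.67 with empty vector, 6.28, 6.37 and 6.50 with wildtype and 6.50, 6.51 and 6.27 with mutant FOXL2. It too was lower on all 6 FOXL2 arrays, by 0.50 (SE 0.12, adjusted p = 0.274, limma) and 0.46 (adjusted p = 0.213, limma) on average.

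RPL39L read 8.53, 8.62 and 8.57 with empty vector, 8.25, 8.29 and 8.22 with wildtype and 8.12, 8.14 and 8.21 with mutant FOXL2. The 3 groups were apart in that order, with differences from empty vector of -0.32 (SE 0.08, adjusted p = 0.298, limma) and -0.42 (SE 0.08, adjusted p = 0.149, limma). RPL36 read 12.60, 12.49 and 12.47 with empty vector, 12.26, 12.23 and 12.34 with wildtype and 12.38, 12.31 and 12.40 with mutant FOXL2, differences of -0.24 (adjusted p = 0.384, limma) and -0.16 (adjusted p = 0.46, limma). The other members without overlap in the wildtype comparison were RPL34, RPL38, RPL23A, RPL32, RPL10A and RPS15A, lower by 0.17 down to 0.07.

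RPL8 and RPS9 had the largest positive differences from empty vector, 0.50 and 0.30 with wildtype and 0.44 and 0.22 with mutant FOXL2, and these rest on empty vector replicate 1. RPS14, RPS3 and RPS25 followed at 0.18, 0.17 and 0.13 with wildtype FOXL2. Without replicate 1 RPL8 and RPS9 were -0.04 and -0.09 with wildtype and -0.10 and -0.17 with mutant FOXL2, and RPS25 was at 0.34 and 0.31. RPS14 and RPS3 were then at 0.026 and -0.047 with wildtype and at 0.052 and -0.086 with mutant FOXL2. Removal of the array also brought calls over all probe sets from 0% to 2.3% with wildtype and 2.99% with mutant FOXL2. Among the members 1 was then called in each: RPL27A at -0.67 with wildtype (adjusted p = 0.0488, limma) and RPL39L at -0.44 with mutant FOXL2 (adjusted p = 0.0345, limma). The adjusted p of RPL39L with mutant FOXL2 ranged from 0.0345 to 0.554 over the alternatives tried.

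Mutant against wildtype FOXL2 gave 0 called members and 0% of all probe sets, and 0 members at an unadjusted p of 0.05, where 1.11% of probe sets passed. Differences ran from -0.09 in RPL39L to 0.19 in RPL27A, and 55 of 56 members were within 0.1. Groups did not overlap for 6 members (background 8.03%). RPL39L and RPS9 were the lower ones with mutant FOXL2 (3.85% of probe sets), and RPL27A, RPL10A, RPL32 and RPL38 the higher ones (4.18%).

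**Figure D4:**
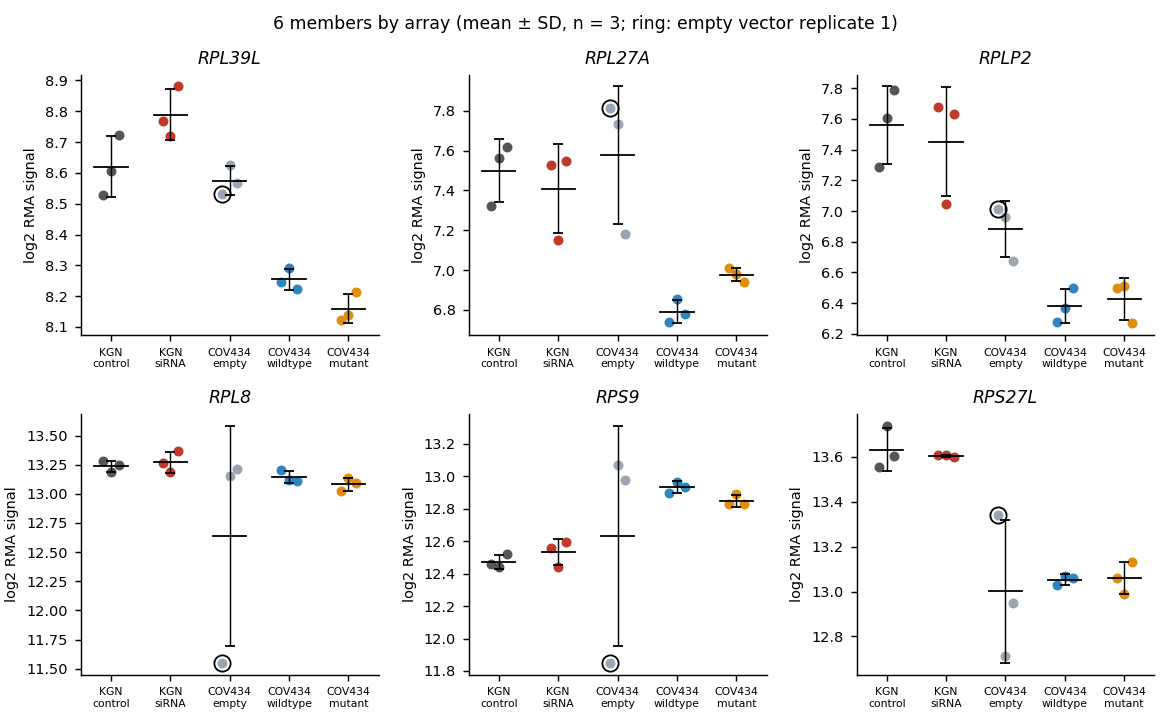
Log2 RMA signal (y axis, its own range in each panel) of 6 members on the 3 arrays of each group (x axis), with bars at the mean and SD and a ring around empty vector replicate 1. RPL39L, RPL27A and RPLP2 are lower on all 6 FOXL2 arrays of COV434 than on its 3 empty vector arrays, and the ringed array is far below its group for RPL8 (11.55) and RPS9 (11.85).

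The knockdown effect was then set against the effect of mutant FOXL2 in a fit of all 15 arrays, which asks for members that respond to the loss and the gain in different ways. No member was called (background 0.227%), and 2 passed an unadjusted p of 0.05 (background 11.1%), both with a positive value (7.07%). For RPL39L the knockdown effect minus the mutant effect was 0.58 (SE 0.12, adjusted p = 0.0612, limma), since it was 0.17 higher after knockdown and 0.42 lower with the mutant plasmid. Its adjusted p was 0.0175 without empty vector replicate 1 and 0.0447 without replicate 3, and it ranged from 0.0175 to 0.179 over all alternatives, with the difference between 0.53 and 0.64 in each. RPL27A followed at 0.51 (adjusted p = 0.395, limma) and RPLP2 at 0.35, then RPL36 at 0.18 and RPL34 at 0.16. At the negative end RPL8 stood at -0.41, which was 0.14 without empty vector replicate 1, and RPS14, RPS9 and RPS19 at -0.19, -0.16 and -0.12. These too rest on that array, since without it RPS14 was at -0.036, RPS9 at 0.23 and RPS19 at -0.024.

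Between the lines, control KGN cells were compared with empty vector COV434 cells. In the deposited values, 8 of 56 members (14.3%) passed the adjusted threshold with limma, against 51.8% of all probe sets. Of these, 2 were higher in KGN, where 38.7% of probe sets were, and 6 were lower, where 13.1% were. At an unadjusted p of 0.05, 11 members passed (57.9% of probe sets), 3 higher (43.2%) and 8 lower (14.7%). Groups did not overlap for 25 members (62%), 10 higher (45.9%) and 15 lower (16.1%). Members differed by -0.04 at the median (middle 50%: -0.15 to 0.11) and all probe sets by 0.27 (-0.09 to 0.69). Of the 362 other probe sets over 12, 101 were higher and 50 lower in KGN, and of the 68 member probe sets over 12, 1 was higher and 9 were lower. Removal of a single KGN control array left 4 (without replicate 1), 5 (without replicate 2) or 3 calls (without replicate 3), and removal of empty vector replicate 1 gave 12.

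RPL38, a large subunit protein that some developmental messengers depend on, was the lowest in KGN. It read 13.41, 13.53 and 13.41 in KGN and 14.11, 13.89 and 13.95 in COV434, without overlap, a difference of -0.53 (SE 0.12, adjusted p = 0.00603, limma). RPL11 read 13.35, 13.44 and 13.42 against 13.82, 13.75 and 13.77, also without overlap, a difference of -0.38 (SE 0.11, adjusted p = 0.0185, limma). Both kept their sign with empty vector replicate 1 left out, at -0.47 and -0.36. RPL38 has dimmer probe sets at which KGN was higher, by 0.60 and 0.11, and neither of these was called.

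RPL35A, RPS7 and RPS10 were lower in KGN by 0.39 (adjusted p = 0.0257), 0.37 (adjusted p = 0.0361) and 0.33 (adjusted p = 0.0318, all by limma), each without overlap. RPL36A was lower as well (adjusted p = 0.0103, limma), at a probe set below background in both lines. RPL11, RPL35A, RPS7 and RPS10 are among the genes mutated in Diamond-Blackfan anaemia, a failure of red cell production. On a list of 13 such genes 8 were measured, and these 4 were called lower in KGN, where 13.1% of all probe sets were. The list does not hold every gene of this anaemia, so the share depends on it. All 4 lost their call without KGN control replicate 1, at -0.36 to -0.33, and without KGN control replicate 3, at -0.39 to -0.31. RPS7 and RPS10 lost it without KGN control replicate 2 as well, RPS7 without empty vector replicate 1, and RPL35A and RPS10 without empty vector replicate 3. For the mean over all probe sets of a gene, RPL35A was at -0.18 and RPS10 at 0.0094, and neither was called. RPL11 and RPS7 kept their call there, at -0.38 and -0.36. The other 4 were RPS29 at -0.30, RPS24 at -0.12, RPS28 at 0.06 and RPS19 at 0.10, of which none passed.

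RPS27L and RPLP2 were the members higher in KGN. RPS27L read 13.55, 13.74 and 13.60 against 13.34, 12.71 and 12.95, without overlap, a difference of 0.63 (SE 0.17, adjusted p = 0.0157, limma), which was 0.80 without empty vector replicate 1. Its other probe sets differed by 1.32 (adjusted p = 0.000162) and -0.67 (adjusted p = 0.013, limma), so the 3 probe sets did not share a direction. RPS27L lost its call without KGN control replicate 2, at 0.58, and without KGN control replicate 3, at 0.65. RPLP2 read 7.29, 7.61 and 7.79 against 7.02, 6.96 and 6.67, also without overlap, a difference of 0.67 (SE 0.17, adjusted p = 0.00994, limma). Nearest to the threshold among those not called were RPL3 at 0.30 (adjusted p = 0.054), RPL34 at -0.34 (adjusted p = 0.0654) and RPS29 (adjusted p = 0.0715, limma). RPL8 stood at 0.60, which was 0.05 without empty vector replicate 1. Without empty vector replicate 1 RPS9 was called too, at -0.55 (adjusted p = 0.00325, limma), as were RPS3 at -0.35 and RPL18 at -0.31 on the lower and RPS25 at 0.37 on the higher side. RPL10L, below background in both lines, made the 12, while RPS7 was no longer called.

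These values depend on how the lines are scaled. Counted over probe sets whose deposited value was identical in every digit on both arrays of a pair, 0 were equal between arrays of different lines, 21 to 93 between KGN arrays and 1012 to 4295 between COV434 arrays, and the median of all probe sets was 4.85 to 4.90 in KGN and 4.34 to 4.43 in COV434. The lines may thus have been normalised separately, which the sources used here do not state. Against its own array median the members' median stood 8.70 to 8.78 higher in KGN and 9.15 to 9.33 higher in COV434, so the lines did not overlap on this measure, although they did on the members' medians as deposited.

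The comparison of lines was repeated on 3 further scales. When each array was shifted so that the members had an equal median, the shift between the lines was only -0.06, and 29351 probe sets were called, of which 78.5% were higher in KGN, against 28283 and 74.7% as deposited. When each array was centred on its median over all probe sets, 27968 were called and 32.4% were higher. Quantile normalisation of the 6 arrays gave 24074 calls, of which 43.1% were higher. The members that were called numbered 5 after scaling on the members themselves, 46 after centring, all lower in KGN, and 11 after quantile normalisation, all lower. RPL11, RPL36A and RPL38 were lower and called on all 4 scales, RPL36A at a probe set below background in both lines. In the deposited values RPL38 was at 0.057 and not called for the mean over its probe sets. RPLP2 and RPS27L were not called after centring or quantile normalisation. RPL35A, RPS7 and RPS10 were not called after scaling on the members (adjusted p = 0.0573, 0.056 and 0.0675, limma). A lower sign on all 4 was held by 28 members, a higher one by 3 (RPLP2, RPS27L and RPL8, the last resting on empty vector replicate 1), and the sign of the other 25 depended on the scale.

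**Figure D5:**
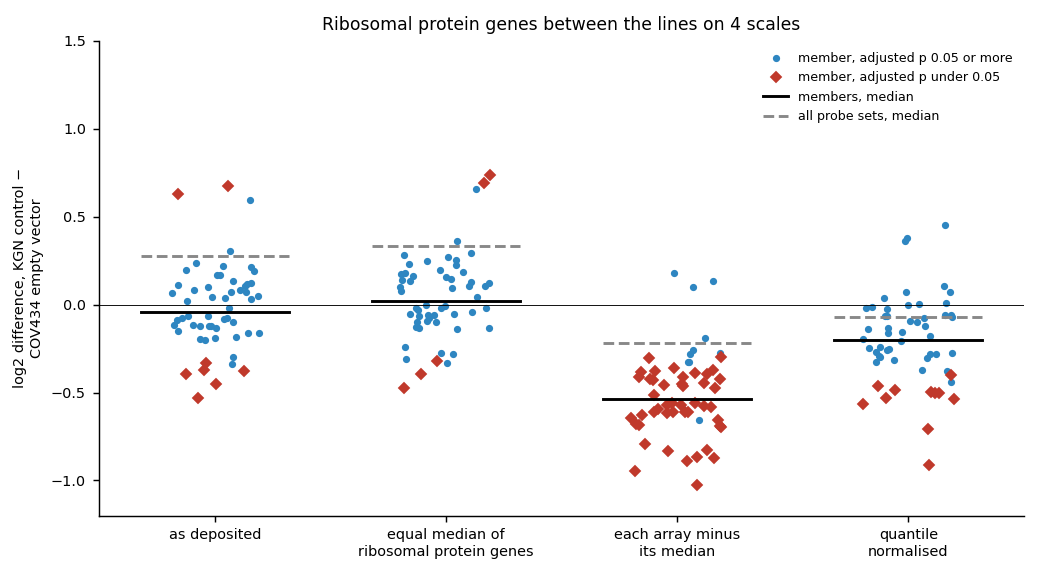
Log2 difference between KGN control and COV434 empty vector cells (y axis) of 56 members on 4 scales (x axis), with medians of the members (black) and of all probe sets (dashed grey) and diamonds at adjusted p under 0.05. The members' median is -0.04 as deposited and -0.53 after centring, and the number called goes from 8 to 46.

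Genes often used as references for RT-qPCR were measured beside the members. Of 11, 8 were higher (38.7% of all probe sets) and 2 lower (13.1%) in KGN in the deposited values. Their median was 0.46, against 0.27 for all probe sets on that scale, with GAPDH at 0.74, B2M at 1.12 and HPRT1 at -0.96. Within the lines 0 of the 11 were called with limma, and at an unadjusted p of 0.05 0 passed after knockdown (background 7.5%), 1 with wildtype (11.1%) and 1 with mutant FOXL2 (13%). Without empty vector replicate 1 B2M was called with wildtype FOXL2, at 0.40 (adjusted p = 0.0449, limma), where 2.3% of probe sets were. Translation factors and other genes known to carry a TOP tract were also measured, 17 in all, and 0 were called within either line with limma. At an unadjusted p of 0.05, 1 passed after knockdown (7.5% of all probe sets), 1 with wildtype (11.1%) and 0 with mutant FOXL2 (13%). The 1 with wildtype FOXL2 was EEF2 at 0.70. With empty vector replicate 1 left out, the highest difference with wildtype FOXL2 was 0.27. At this p 2 were then higher with wildtype and 2 with mutant FOXL2, where 5060 and 5376 of 54613 probe sets were. Between the lines 1 of the 17 was higher (38.7% of all probe sets) and 3 were lower (13.1%) in KGN in the deposited values. TPT1 was higher at 0.38, and EIF3E (-1.14), HNRNPA1 (-0.62) and EIF3H (-0.45) were lower. EEF1A1, which brings aminoacyl-tRNA to the ribosome, differed by 0.07 (adjusted p = 0.639, limma). EIF4A2 was below background in both lines. FAU, the source of the small subunit protein RPS30 which the symbol rule leaves out, was lower by 0.48 (adjusted p = 0.00942, limma). It was the only one called of 5 genes measured outside the rule, where 51.8% of all probe sets were called. Of the others RPL22L1 was at 0.37, RPL7L1 at -0.29, RPL26L1 at -0.28 and RPL36AL at -0.10.

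Over all 117 probe sets of the members, 0 were called with limma in each of the within-line comparisons. At an unadjusted p of 0.05, 2 passed after knockdown (7.5% of all probe sets), 9 with wildtype (11.1%), 10 with mutant (13%) and 0 for mutant against wildtype FOXL2 (1.11%). Between the lines 13 were higher (38.7% of all probe sets) and 21 lower (13.1%). Among the 49 probe sets with a mean of 12 or less, 12 were higher and 12 lower. Of 14 members with more than 1 probe set over 12, 9 had the same sign between the lines at all of them. The 64 probe sets that list a ribosomal protein gene beside other symbols gave 0 calls with limma within the lines (unadjusted, 4 with wildtype FOXL2 and 0 otherwise) and 7 higher and 9 lower between them.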

How the data were processed

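The deposited values are log2 signals per probe set that the authors made from U133 Plus 2 scans with RMA and background correction in R, after a check with AffyQCReport. Versions are not given in the sources used here. From these values differences were fitted in R 4.3.3 with limma 3.58.1 (lmFit and eBayes, two-sided) on all 54613 probe sets, without the 62 array controls, and p-values were adjusted by Benjamini-Hochberg over all of them, with a threshold of 0.05. The fits held 6 KGN arrays, 9 COV434 arrays, 6 control arrays of both lines, or all 15. With 3 arrays a group the number of arrays limits the precision, and an exact test of 3 against 3 cannot go below p = 0.1. Gene symbols came from the platform annotation, and 41091 probe sets had a single symbol, 1801 several and 11721 none. The limma step was tested on simulated data. The members, gene lists and comparisons were chosen with earlier results of these data known. Members were followed by name under the alternatives if fixed by role or if at an extreme. Extremes were the 5 highest or lowest differences, the 5 highest or lowest SDs and the 3 highest or lowest mean signals. Further members are named in the text where they were called, had groups without overlap or belonged to another list. Quantile normalisation, centring, array weights, a background filter, other probe sets of a gene, all arrays in 1 fit and removal of each array in turn were the alternatives. Scaling on the deposited values in the test of scales and the probe sets with several symbols were added after the data had been seen.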

Additional observations from a re-analysis of the deposited data

How the results depend on the processing

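The 36 named members gave 3510 values under the alternatives, of which 3434 kept their side of the threshold. A further 20 fell short of it, 53 passed it, and 3 that were called in the main fit reversed their sign. Changes of sign in values not called in the main fit were not counted as reversals. Such a change was seen for RPL8 with wildtype FOXL2 without empty vector replicate 1. The reversals were between the lines: RPL38 at 0.057 and RPS10 at 0.0094 for the mean over all probe sets of a gene, and RPS27L at -0.67 without _s_at and _x_at probe sets. In the knockdown, 0 members were called under each alternative. With wildtype FOXL2, 0 to 1 were called and the median ran from -0.067 (without empty vector replicate 2) to -0.0033 when each array was left out. With mutant FOXL2, 0 to 1 were called with an array left out and 1 with all 15 arrays in a common fit. For mutant against wildtype FOXL2 the count stayed at 0. For the knockdown effect minus the mutant effect it was 1 with the background filter, 1 for the mean over probe sets and 0 to 1 with an array left out. Between the lines, 14 members were called with all 15 arrays, 46 after centring, 20 for the mean over probe sets, 18 without _s_at and _x_at probe sets, and 3 to 12 with an array left out. Their median difference was -0.20 after quantile normalisation, -0.53 after centring, 0.043 for the mean over probe sets and -0.085 to 0.022 with an array left out. With scaling on the members, 12566 probe sets were called with the background filter, since fewer were tested, and 22946 to 31054 with an array left out. The cause of the other changes was not tested. No paired analysis was possible because the labels give no replicate numbers. Signals under background bound RPL3L, RPL10L and RPL36A only.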

Other observations

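Mitochondrial ribosomal proteins, which build the separate ribosome of the mitochondrion, were measured on the same arrays. Of 75 measured, 37 were lower and 5 higher in KGN than in COV434 in the deposited values (background 51.8% called, 13.1% lower), with a median of -0.39. The lowest were MRPL19 (-1.15) and MRPS9 (-1.13), and the highest was MRPS33 (1.32). Without empty vector replicate 1, 41 were lower and 10 higher. Within the lines 0 of 75 were called with limma. At an unadjusted p of 0.05, 1 was higher after knockdown, 18 were lower with wildtype (7.46% of all probe sets) and 19 were lower with mutant FOXL2 (8.2%). The medians were 0.04 after knockdown, -0.14 with wildtype and -0.13 with mutant FOXL2. Both plasmid comparisons share the empty vector arrays and are not independent. Without empty vector replicate 1, 24 were lower and 3 higher with wildtype FOXL2, where 6744 and 5060 of 54613 probe sets were. With mutant FOXL2 26 were lower and 0 higher, where 7078 and 5376 probe sets were. The medians were then -0.15 and -0.16.

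Of 30 genes of ribosome biogenesis, 8 were lower (13.1% of all probe sets) and 2 higher (38.7%) in KGN. Without empty vector replicate 1 these numbers were 16 and 2, where 57.7% of all probe sets were called in either direction. POLR1B, a subunit of RNA polymerase I, was at -1.04 and EIF6, which keeps the subunits apart during assembly, at 1.68 (adjusted p = 0.000971, limma). Within the lines 0 of 30 were called with limma. At an unadjusted p of 0.05, 4 passed after knockdown (7.5% of all probe sets), 4 with wildtype (11.1%) and 2 with mutant FOXL2 (13%). With empty vector replicate 1 left out, 14 were lower and 1 higher with wildtype FOXL2 at this p. Of all 54613 probe sets, 6744 were lower and 5060 higher. With mutant FOXL2 13 were lower and 1 higher, where 7078 and 5376 probe sets were. The medians of the 30 were then -0.20 and -0.17. At the adjusted threshold without that array, UBTF (-0.49), BYSL (-0.40) and RRP12 (-0.40) were lower with wildtype FOXL2, where 2.3% of all probe sets were called. UBTF (-0.56), MRTO4 (-0.44) and BYSL (-0.40) were lower with mutant FOXL2 against the same 2 empty vector arrays, where 2.99% were. Among 12 regulators of growth and translation 0 were called within the lines with limma (unadjusted, 0 after knockdown, 3 with wildtype and 2 with mutant FOXL2, where 7.5%, 11.1% and 13% of all probe sets passed). Between the lines 3 of the 12 were higher (38.7% of all probe sets) and 2 lower (13.1%) in KGN in the deposited values. RPS6KB1, an S6 kinase, was lower at -2.00 (adjusted p = 7.01e-06, limma) and RPTOR at -0.42 (adjusted p = 0.0241, limma). EIF4E, the cap-binding factor, was higher at 0.93 (adjusted p = 0.000609, limma) and RICTOR at 0.82 (adjusted p = 0.00676, limma). LARP1, a protein that binds TOP messengers, was higher at 0.40 (adjusted p = 0.0176, limma).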
